A study of Mus musculus with 8 samples.

Results

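H3K27me3, trimethylated lysine 27 of histone H3, was compared between mouse neuronal stem cells that carry H3.3K27M and the same kind of cells that carry wild-type H3.3, through the enriched intervals deposited for each. All H3K27me3 intervals of both libraries were taken, 5877 from the K27M library and 20705 from the wild-type library, which makes 26582 of the 131828 intervals of the series. The series holds 8 chromatin immunoprecipitation samples, with 1 library per genotype for H3K27me3, H3K27ac, H3K4me3 and input. The K27M cells were stably transduced with H3.3 whose lysine 27 is a methionine, and the wild-type cells with unaltered H3.3. Both lines are labelled as negative for p16Ink4a and p14Arf, and both grew in Neurobasal A medium with N2, B27, EGF and bFGF. Each genotype is 1 transduced line and 1 library, so the lines, the libraries and the genotypes cannot be told apart, no test was possible, and intervals in parentheses are 95% intervals of counting error only.

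H3K27me3 is written by the methyltransferase EZH1 or EZH2 within Polycomb repressive complex 2 and is read by CBX subunits of Polycomb repressive complex 1. The complex is recruited to CpG-rich start sites of silent developmental genes, and the mark then extends over the surrounding chromatin into broad domains. H3.3K27M lowers H3K27 methylation across the genome of cells that carry it, and the corresponding human histone is found in diffuse midline glioma.

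Each deposited interval has a start, an end, a summit, and a mean and a highest tag density over bins of about 32 nt. The mean density is over the bins that were counted, which held 91.7% of the called length in the K27M library and 96.8% in the wild-type library. The total number of tags behind each library is unknown. The cell type label was set against the other marks. H3K4me3 lay on all 10 neural stem cell markers looked for in both genotypes, and H3K27ac on 9 in the K27M library, where Hes5 lacked it, and on all 10 in the wild-type library. Msi1 alone of the 10 held an H3K27me3 interval, in both libraries. Of 7 neuronal markers, H3K4me3 also lay on 5 in both genotypes, on 2 of 5 microglial, 2 of 4 endothelial and 1 of 5 astrocyte markers in both, on 2 of 5 fibroblast markers in K27M and 1 in wild type, and on none of 5 oligodendrocyte markers. H3K27ac lay on 2 of the neuronal markers in K27M and 4 in wild type, and on 1 and 3 of the astrocyte ones. In the same order the counts were 0 and 2 for microglial, 1 and 2 for endothelial, 0 and 1 for fibroblast and 1 and 1 for oligodendrocyte markers. Cdkn2a, the gene of both proteins named as absent, held H3K4me3 and H3K27ac intervals in both genotypes and no H3K27me3 interval, and the labels do not say what was removed there.

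The start sites below are examples that lay inside H3K27me3 in both libraries and examples that did so in the wild-type library alone. They belong to the genes of the lists described further on that had the highest wild-type density, with the sequence from RefSeq (GRCm38.p6, the assembly of mm10), from 250 bases before to 50 after the start, on the coding strand, and with each CpG in capitals. In 3 cases the start lay in an interval of both libraries: Neurod2, a proneural factor of cortical neurons (chr11:98329596-98329895, minus strand, 16 CpG), Wnt1, a secreted signal of the midbrain (chr15:98789607-98789906, plus strand, 26 CpG), and Grin1, the obligatory NMDA receptor subunit (chr2:25319138-25319437, minus strand, 33 CpG).
Neurod2: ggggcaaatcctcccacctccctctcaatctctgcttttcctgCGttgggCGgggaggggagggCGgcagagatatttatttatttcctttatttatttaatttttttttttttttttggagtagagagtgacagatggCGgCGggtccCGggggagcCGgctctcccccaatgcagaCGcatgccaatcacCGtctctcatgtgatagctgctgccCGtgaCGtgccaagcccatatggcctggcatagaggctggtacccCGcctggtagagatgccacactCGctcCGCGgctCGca
Wnt1: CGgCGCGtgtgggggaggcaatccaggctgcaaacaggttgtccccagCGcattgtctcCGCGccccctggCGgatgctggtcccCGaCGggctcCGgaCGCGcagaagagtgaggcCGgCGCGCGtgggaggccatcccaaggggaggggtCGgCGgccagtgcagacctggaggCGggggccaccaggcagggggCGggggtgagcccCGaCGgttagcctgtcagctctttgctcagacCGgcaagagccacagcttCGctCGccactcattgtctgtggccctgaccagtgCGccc
Grin1: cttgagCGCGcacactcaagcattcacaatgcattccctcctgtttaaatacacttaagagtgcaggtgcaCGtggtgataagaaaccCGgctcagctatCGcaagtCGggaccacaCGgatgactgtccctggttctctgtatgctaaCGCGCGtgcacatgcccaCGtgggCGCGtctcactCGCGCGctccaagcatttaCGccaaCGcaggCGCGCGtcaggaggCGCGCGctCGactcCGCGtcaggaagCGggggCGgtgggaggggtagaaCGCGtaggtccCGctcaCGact
In 3 others the start lay in a wild-type interval that no K27M interval met: Efna3, an ephrin ligand (chr3:89321719-89322018, minus strand, 34 CpG), Gdf7, a BMP of the dorsal spinal cord (chr12:8301905-8302204, minus strand, 26 CpG), and Wnt10b, a Wnt ligand (chr15:98778101-98778400, minus strand, 18 CpG).
Efna3: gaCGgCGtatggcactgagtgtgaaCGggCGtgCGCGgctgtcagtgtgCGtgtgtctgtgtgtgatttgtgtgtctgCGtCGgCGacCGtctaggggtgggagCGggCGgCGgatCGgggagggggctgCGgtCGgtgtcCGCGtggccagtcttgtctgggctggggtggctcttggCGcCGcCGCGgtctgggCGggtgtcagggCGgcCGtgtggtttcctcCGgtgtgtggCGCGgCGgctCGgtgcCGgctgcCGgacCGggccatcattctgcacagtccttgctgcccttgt
Gdf7: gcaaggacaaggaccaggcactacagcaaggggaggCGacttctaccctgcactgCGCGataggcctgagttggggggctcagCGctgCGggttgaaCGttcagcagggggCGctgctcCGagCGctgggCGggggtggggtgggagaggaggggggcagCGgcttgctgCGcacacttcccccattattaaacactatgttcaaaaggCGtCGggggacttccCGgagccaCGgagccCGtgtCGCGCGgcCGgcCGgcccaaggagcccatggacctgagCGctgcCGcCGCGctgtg
Wnt10b: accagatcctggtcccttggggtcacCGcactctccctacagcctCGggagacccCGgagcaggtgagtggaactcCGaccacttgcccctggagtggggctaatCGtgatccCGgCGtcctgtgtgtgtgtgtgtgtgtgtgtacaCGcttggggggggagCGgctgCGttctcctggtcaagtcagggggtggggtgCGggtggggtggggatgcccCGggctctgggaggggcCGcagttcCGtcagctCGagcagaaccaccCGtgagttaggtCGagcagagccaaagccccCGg
The CpG counts of both sets overlap, and Wnt1 and Gdf7 have the same one. Over all 32817 promoters of this length the median was 7 CpG, and 68.6% of them had no more than Neurod2 while 93.0% had no more than Efna3. The highest wild-type densities were 173, 159 and 152 in the intervals of Neurod2, Wnt1 and Grin1, against 44, 34 and 33 in those of Efna3, Gdf7 and Wnt10b. Both sets were picked as the highest by this same density, so these values only describe the examples.

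Over all start sites both measures differed between the groups, with overlap. The 1219 starts inside an interval of both libraries had a median of 10 CpG, against 5 for the 4527 starts inside a wild-type interval alone, 11 for the 83 in a K27M interval alone and 7 for the 26988 in neither. At least 15 CpG were found in 36.6% of starts in both, 23.6% in wild type alone, 47.0% in K27M alone and 36.3% in neither. By that cut, starts in both lists were thus close to those in neither. The wild-type highest density differed more, with a median of 44 at starts in both lists and 19 at starts in the wild-type list alone. Where the wild-type highest density was above its 75th percentile over these starts (34), a K27M interval held 65.4% (61.1 to 69.6) of starts with at least 15 CpG and 55.6% (52.2 to 58.9) of starts with fewer. Between the median (21) and that value the shares were 22.6% (18.5 to 27.1) and 18.1% (15.8 to 20.5), and between the 25th percentile (15) and the median they were 4.73% and 5.39%. The wild-type summit lay at a median of 1683 bp from the starts in both lists and 3341 bp from those in the wild-type list alone.

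The K27M library held fewer H3K27me3 intervals at every length above 2 kb, and the deficit grew with length up to the class of 10 to 20 kb. There were 2410 K27M intervals of 2 to 5 kb against 4118 in the wild-type library, or 58.5% as many, then 1767 against 7950 at 5 to 10 kb (22.2%) and 800 against 5783 at 10 to 20 kb (13.8%). Beyond 20 kb the share no longer moved, with 278 against 2059 intervals at 20 to 40 kb (13.5%) and 78 against 583 at 40 kb or more (13.4%). Only the shortest class went the other way, with 544 K27M and 212 wild-type intervals under 2 kb. The median length was 4799 bp in K27M and 8399 bp in wild type. With 1 floor on mean density for both lists, at the wild-type 5th percentile (3.54), it was 10799 bp in K27M and 8599 bp in wild type, so the order turned. The longest interval measured 249799 bp in the K27M library and 429799 bp in the wild-type library, both over the HoxC cluster. Intervals of at least 40 kb overlapped a CpG island in 55.1% of K27M and 49.9% of wild-type cases, and their median mean density was 10.3 in K27M and 9.14 in wild type, the only class in which the K27M value was not the lower one.

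**Figure D1:**
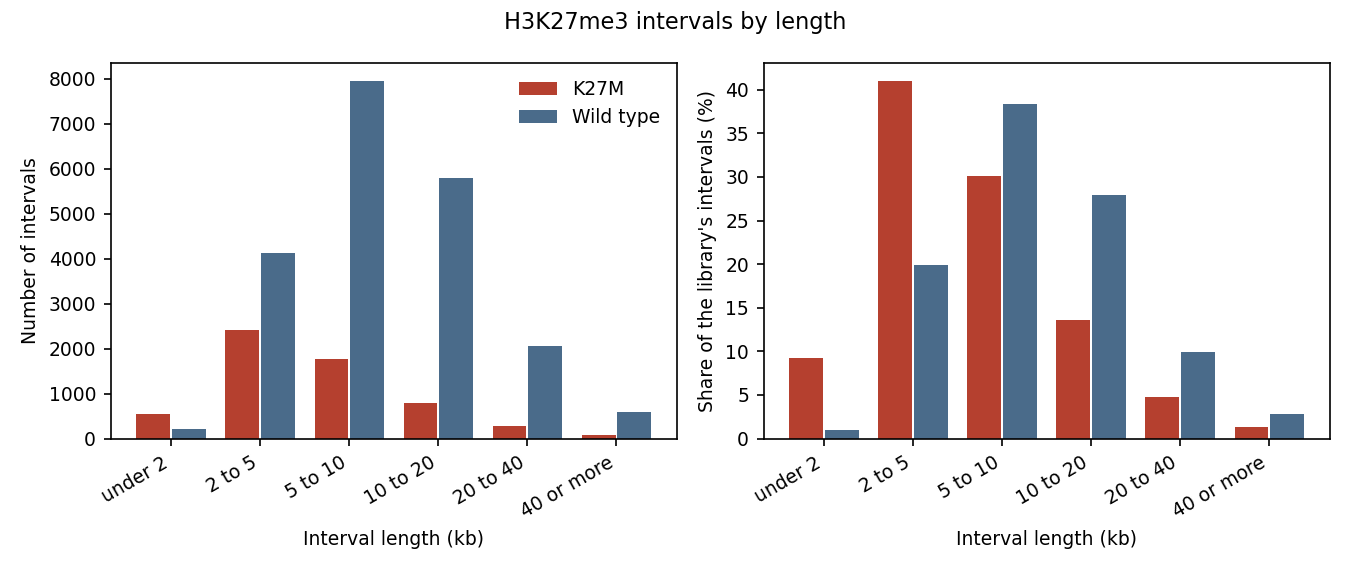
Number of H3K27me3 intervals (left) and share of each library's intervals in percent (right) by interval length in kb, with K27M in red and wild type in blue. Bars show that K27M intervals outnumber wild-type ones only under 2 kb, and that 2 to 5 kb is the fullest K27M class and 5 to 10 kb the fullest wild-type class.

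Long wild-type domains were the ones most often found again, and the ones most often found in pieces. Over the whole list 18.6% of wild-type intervals met a K27M interval (3841 of 20705). The share was 6.78% at 2 to 5 kb, 10.3% at 5 to 10 kb, 22.2% at 10 to 20 kb, 47.5% at 20 to 40 kb and 81.0% (77.5 to 84.1) at 40 kb or more. Of the 3841 intervals met, 23.9% (919) were met by 2 or more separate K27M intervals. That share was 4.30% at 2 to 5 kb and 65.5% (61.0 to 69.8) at 40 kb or more. A single piece remained in 2922 domains, 2 pieces in 641, 3 in 164 and 4 in 58, and the most split domain had 16. The covered part shrank with length as well, with a median of 85.7% of the domain at 2 to 5 kb, 64.7% at 5 to 10 kb, 43.4% at 10 to 20 kb, 33.4% at 20 to 40 kb and 30.8% at 40 kb or more. Any shared base counted as an overlap, so a longer domain had more room to be met and to hold several pieces. A K27M interval of a given length also covers a smaller share of a longer domain. Longer domains were also denser in the wild-type library, with a median mean density of 4.65 at 2 to 5 kb and 9.14 at 40 kb or more. The parts of length itself and of density in these orders were not tested, so a preference for long domains is not shown. With the density floor named above, 7.02% of wild-type intervals were met and 9.06% of those were split. With intervals within 5 kb of each other joined, 22.4% were met and 16.7% of those were split.

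K27M intervals in turn sat inside wild-type ones. Of the 5088 K27M intervals on a wild-type interval (86.6% of the list), 84.6% (4306) lay wholly within it and 159 spanned more than 1. Joining was thus the exception: 136 K27M intervals bridged 2 wild-type intervals, 22 bridged 3 and 1 bridged 6. That last one, 65199 bp long, ran over Epha7, a receptor for ephrins. The 789 K27M intervals on no wild-type interval were short, with a median of 3599 bp and a median mean density of 2.63.

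The most split domain of all, of 351599 bp with 16 pieces, overlapped none of the genes used. Among wild-type intervals on a gene, the 6 with most pieces were between 161799 and 429799 bp long. The domain of Igfn1, Pkp1 and Tmem9 (chr1:135854600-136017399) and that of Kcnq1, Kcnq1ot1 and Trpm5 (chr7:143086800-143248599), an imprinted potassium channel locus with its antisense RNA, each had 10 pieces. The pieces covered 61.9% of the Igfn1 domain and 54.8% of the Kcnq1 domain. The densest piece had a highest density of 16 in K27M, against 76 in wild type, in the Igfn1 domain, and 15 against 61 in the Kcnq1 domain. The domain of Ass1, Fubp3 and Hmcn2 had 9 pieces over 36.7% of its 244999 bp, with a highest density of 23 in K27M and 76 in wild type. Gata5, an endodermal and cardiac factor, lay in a domain of 172799 bp with 8 pieces that covered 30.1%, and its highest density was 16 in K27M and 80 in wild type. Casz1, a zinc-finger factor, had 7 pieces over 45.7% of 272999 bp, with 51 in K27M and 129 in wild type. HoxC also counted 8 pieces, but they covered 88.8% of the domain, since 1 of them held 249800 bp.

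Other long domains were absent or intact. The longest unmet wild-type domains lay on Prdm16, a chromatin regulator of neural stem cells and brown fat, which had 2 of them, of 113399 and 98799 bp, with highest densities of 71 and 66 and no K27M interval on either. Unmet domains also covered the homeobox gene Nkx1-1 with Uvssa (109799 bp, highest density 43), the calcium channel gene Cacna1i (84199 bp, 23), Cacng2 with Eif3d (79999 bp, 37), and the chloride channel gene Ano1 (81399 bp, 23). A K27M interval met another part of Cacna1i, at its start site. At the other end, 532 of the 3841 met domains (13.9%) were covered over at least 90% by 1 K27M interval. The longest held Cbfa2t3, a corepressor, with 157800 of 164799 bp covered, while the highest density was 61 in K27M and 140 in wild type. Srcin1, a SRC inhibitor of synapses, kept 96.7% of 116399 bp in 2 pieces, with 71 in K27M and 187 in wild type. In 3 of the 6 longest intact domains the highest density of the K27M interval, taken over its whole length, was above that of the wild-type domain. Pkhd1l1 had 43 in K27M and 34 in wild type, Phactr3 with Sycp2 45 and 39, and Pax3, a neural crest factor, 47 and 42. The Pax3 K27M interval of 106599 bp also reached the next wild-type interval, whose highest density was 61, so a higher K27M value is not shown for Pax3. The imprinted pair Magel2 and Ndn kept 92.3% of 64599 bp, with 36 in K27M and 59 in wild type.

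**Figure D2:**
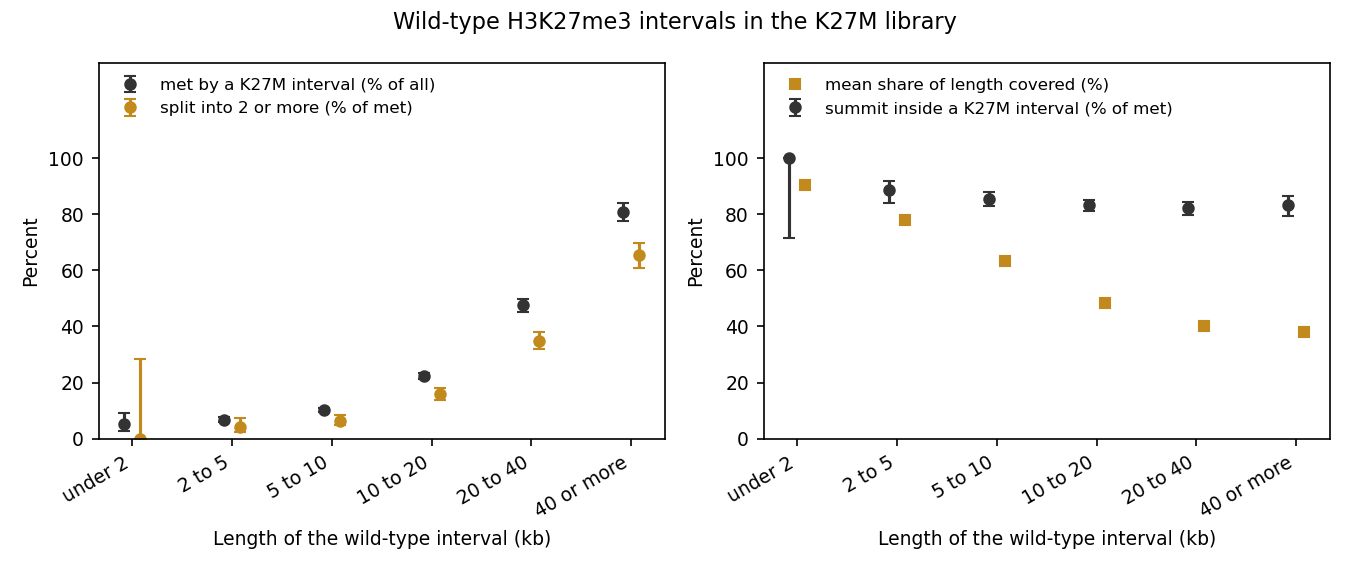
Left, percent of wild-type H3K27me3 intervals met by a K27M interval (black) and percent of those met that were split into 2 or more pieces (yellow), by wild-type length in kb. Right, percent of met intervals whose wild-type summit lay inside a K27M interval (black) and the mean percent of their length covered (yellow); bars are 95% binomial intervals of counting error. Split shares climb with length to 65.5%, while the summit stays inside for 82.2% or more in every class as the mean covered share drops to 37.9%.

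The wild-type summit was kept far more often than the rest of the domain. A K27M interval held the wild-type summit in 83.9% (3223 of 3841, 82.7 to 85.1) of met domains, although K27M intervals covered 50.4% of a met domain on average. At 40 kb or more the summit lay inside in 83.3% (79.6 to 86.5) and the mean covered share was 37.9%. The share by highest wild-type density was 91.9% above the 90th percentile of that density (27), with a mean covered share of 49.2%. It followed no order below that, at 81.4% up to the 25th percentile (11), 79.2% up to the median (14), 74.4% up to the 75th percentile (19) and 78.2% up to the 90th.

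To compare summits directly, 2644 single pairs were used, in which 1 K27M and 1 wild-type interval overlapped each other and no other interval. The summits lay a median of 1048 bp apart (976 to 1113, quartiles 320 and 2272). They were within 500 bp in 32.9% of pairs, within 1 kb in 49.0% and within 2 kb in 71.5%. Interval length limits these distances, since the K27M intervals had a median length of 4999 bp and held the wild-type summit in 81.1% of pairs. The distance was 816 bp (672 to 906) where the wild-type interval held a CpG island and 1152 bp (1085 to 1248) where it held none. In the 2168 pairs whose K27M interval lay inside the wild-type one, the K27M midpoint was a median of 1218.5 bp from the wild-type summit and 1900 bp from the wild-type midpoint, and it was closer to the summit in 57.1%.

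The 6 pairs on genes with their summits farthest apart were picked for that distance, which only a wide interval allows. In the domain of Hrh2, a histamine receptor, the summits were 45899 bp apart, and the highest density was 6 in K27M and 28 in wild type. The distance was 44272 bp for Parvb and Parvg, which link integrins to actin, with 7 in K27M and 28 in wild type. It was 40032 bp for Pkdrej and Ttc38, 39712 bp for the kinase gene Stk33, 33987 bp for the cytochrome P450 gene Cyp3a13 and 26048 bp for the potassium channel gene Kcnn3. The K27M highest density of these 6 ranged from 4 to 8 and the wild-type one from 23 to 35. The medians over all single pairs were 7 in K27M and 24 in wild type.

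Within single pairs the highest density differed more than the mean. The median mean density was 2.86 in K27M and 7.43 in wild type, and the median highest density 7 in K27M and 24 in wild type. On the log2 scale with a pseudocount of 1, the median K27M over wild-type ratio was -1.09 (-1.11 to -1.07) for the mean density and -1.52 (-1.58 to -1.50) for the highest. The mean density was at least 2-fold lower in K27M on that scale in 1496 pairs (56.6%) and at least 2-fold higher in 1 (0.0378%). The highest density was at least 2-fold lower in 2069 (78.3%) and at least 2-fold higher in 19 (0.719%). The ratio of the highest density lay below that of the mean in 84.4% of pairs with the pseudocount and in 75.5% without it. In the 345 pairs of equal length within 20% these shares were 57.7% and 45.8%. These ratios hold at the deposited scale, and both turned positive when density summed over each whole list was made equal, to 1.40 and 1.18. The 2 libraries' intervals also differ in length, with a median of 4999 bp in K27M and 13599 bp in wild type.

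**Figure D3:**
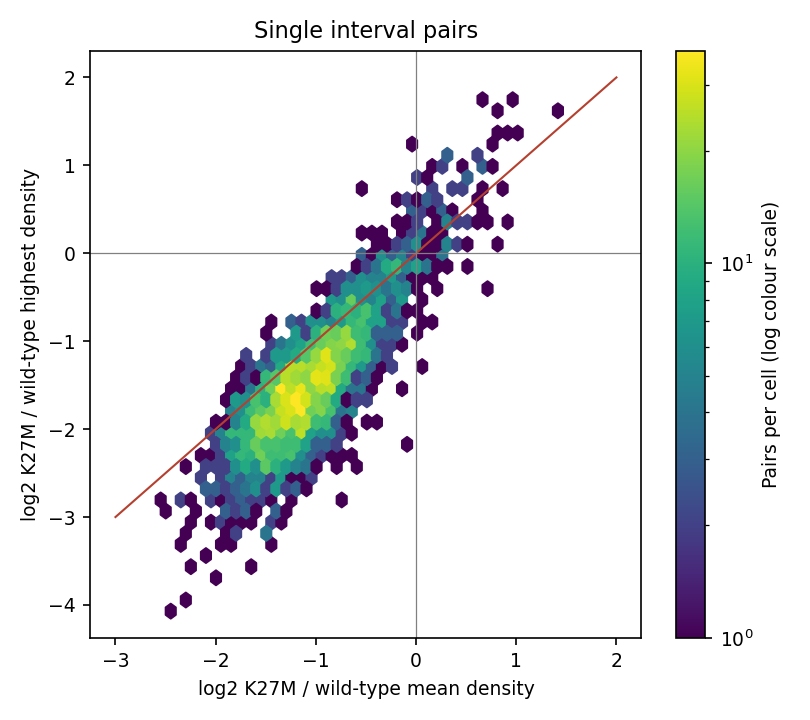
Log2 ratio of K27M to wild-type highest tag density against that of the mean tag density in 2644 single interval pairs, with a pseudocount of 1; colour gives the number of pairs per hexagon on a log scale, and the red line marks equal ratios. Most pairs lie below the line, 84.4% of them, around -1.09 on the x axis and -1.52 on the y axis.

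The highest over the mean density of an interval is free of a constant scale factor of its library. It may still depend on depth, which is unknown, on interval length and on the bins counted. Over all intervals its median was 2.59 in K27M and 2.79 in wild type, an order that turned with the density floor, to 3.04 in K27M and 2.80 in wild type. The log2 ratio of this measure between K27M and wild type had a median of -0.29 (-0.31 to -0.27) over the pairs. It was 0.01 for wild-type intervals of 2 to 5 kb, -0.17 at 5 to 10 kb, -0.30 at 10 to 20 kb, -0.43 at 20 to 40 kb and -0.52 at 40 kb or more. Over the 345 pairs of equal length within 20%, with highest densities of 12 in K27M and 24 in wild type, it was 0.03. In the 171 pairs whose K27M interval contained the wild-type one it was 0.18. In both libraries this measure was larger in longer intervals, from 2.35 at 2 to 5 kb to 3.69 at 40 kb or more in K27M, and from 2.36 to 3.92 in wild type. With the mean taken over all bins of an interval, a setting added after seeing the data, these values were 2.69 and 3.81 in K27M and 2.44 and 3.99 in wild type.

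The 6 pairs with the lowest K27M over wild-type ratio of this measure had their summits in nearly the same place. They were picked for that ratio, so it is a description. Sfrp5, a secreted Wnt inhibitor, had a highest density of 23 in K27M and 104 in wild type, with mean densities of 7.56 and 8.07 and summits 288 bp apart. Neurog1, a proneural factor of sensory neurons, had 6 in K27M and 83 in wild type, and its K27M interval measured 1599 bp within 26399 bp. Nefl, the light neurofilament, had 6 in K27M and 46 in wild type. The nicotinic receptor genes Chrna3 and Chrnb4 had 11 in K27M and 63 in wild type. Lbx1, a homeobox factor of spinal interneurons, had 4 in K27M and 46 in wild type, with summits 80 bp apart. Neurog3, the proneural factor of endocrine pancreas, had 5 in K27M and 59 in wild type. Over the 6 pairs the summit distance ran from 80 to 320 bp. Their K27M intervals, from 999 bp at Lbx1 to 7399 bp at Sfrp5, each held the wild-type summit, which limits this distance.

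**Figure D4:**
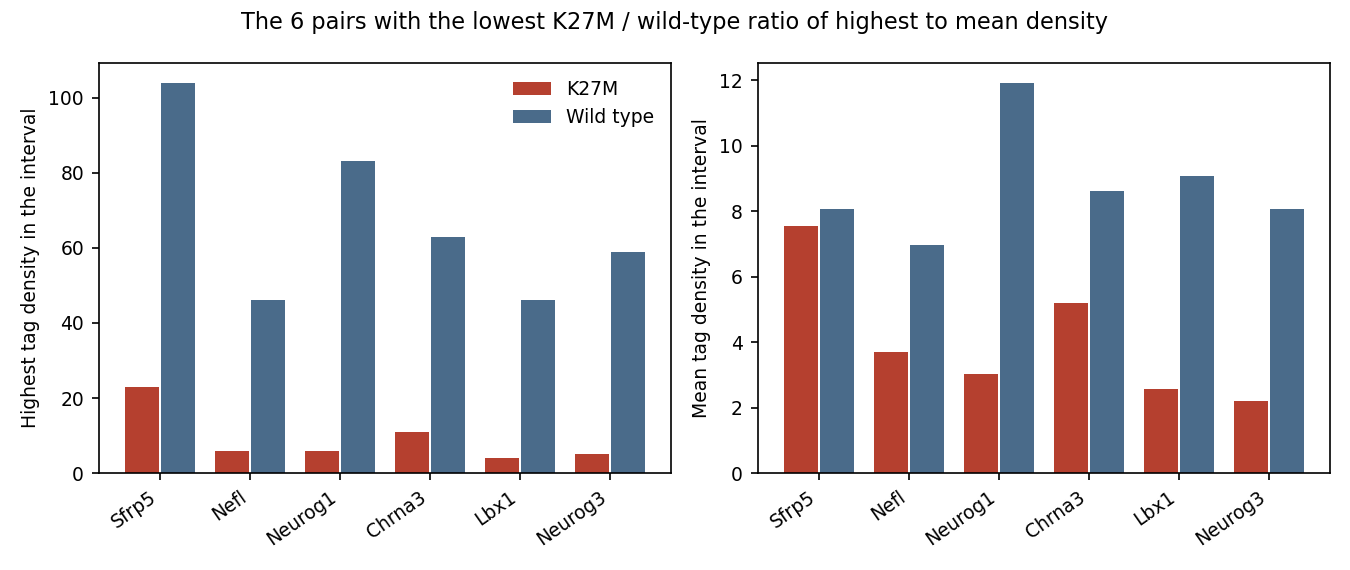
Highest (left) and mean (right) tag density in the K27M interval (red) and the wild-type interval (blue) of the 6 single pairs with the lowest K27M over wild-type ratio of highest to mean density, each named by a gene on it. The K27M highest density is 4 to 23, and the wild-type one 46 to 104.

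The 5 pairs described next, among those with the highest ratio of this measure, each had a K27M interval that was longer than the wild-type one. Il1rapl1, a synaptic receptor on the X chromosome, had a highest density of 24 over 26199 bp in K27M and 10 over 5999 bp in wild type. Nrxn3, a presynaptic adhesion protein, had 16 over 24999 bp in K27M and 8 over 3399 bp in wild type. Kcnip4, a potassium channel partner, had 11 in K27M and 7 in wild type, and Cadps2, a factor of vesicle release, 11 and 9. Esx1, an X-linked homeobox gene of placenta and testis, had 15 in K27M and 9 in wild type. Their K27M mean densities ran from 2.59 to 5.18 and their wild-type ones from 4.06 to 6.11.

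The 6 domains on genes with the tallest wild-type summits were all met, and in all 6 a K27M interval held the summit. In the domain of Onecut3, a homeobox factor of neurons, and Atp8b3 the highest density was 62 in K27M and 196 in wild type, and 5 pieces covered 53.3%. HoxC had 78 in K27M, the maximum of that list, and 192 in wild type. Neurod2 had 72 in K27M and 173 in wild type, Wnt1 with Ddn 45 and 159, and Grin1 62 and 152. The Grin1 start shown above lay in a second K27M piece of 26599 bp whose highest density was 17, since the denser piece covered the other end of the gene.

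At the level of genes, 2182 of 26219 (8.32%) carried an interval on their span in the K27M library and 6781 (25.9%) in the wild-type library, with 2064 in both, or 30.4% (29.3 to 31.5) of the wild-type ones. At start sites the count was 771 of 3467 (22.2%). In the genes of both lists K27M intervals covered a median of 23.8% of the gene span, against 83.9% for wild-type intervals. Where the densest intervals of a gene overlapped, in 1865 genes, the median log2 ratio was -1.22 for the mean and -1.70 for the highest density, and the mean was at least 2-fold lower in K27M in 1215 (65.1%) and at least 2-fold higher in 4 (0.214%). The highest density was at least 2-fold lower in 1538 (82.5%). With the density floor named above, 14.4% of wild-type genes were also marked in K27M. The lists that follow are described against these shares, and no list was tested.

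Transcription factors of patterning and fate kept an interval in more cases than the share over all genes. Their wild-type intervals were denser, with medians of 8.76 to 12.6 per list against 6.46. These intervals were also longer, with medians of 26199 to 31699 bp against 13399 bp, and had median highest densities of 35 to 59.5 against 20. The parts of density and length in the share were not tested. The higher share was not particular to these factors. The share was 62.5% for ligands, 57.9% for neurotransmitter receptors and 54.8% for voltage-gated channels, against 30.4% over all genes. Wild-type medians were 10.7 for ligands and 9.12 for channels, but 6.25 for receptors. Of the lists with marked genes, only the leukocyte genes lay below the share over all genes, at 25%. Of 24 neural patterning homeobox genes marked in wild type, 17 were marked in both, and 4 of 15 with a ratio were at least 2-fold lower, with a median of -0.34. Evx1, of spinal interneurons, had a mean density of 20.5 in K27M and 21.8 in wild type, and Nkx2-1, of ventral forebrain, 11.8 and 21.7. Isl1, of motor neurons, had 22.7 in K27M and 15.1 in wild type. Irx4 was lowest, with 2.10 in K27M and 14.5 in wild type, and Pax7 followed with 2.22 and 13.0. Irx6 and Phox2a, at 4.06 and 3.83 in wild type, had no K27M interval. By highest density 9 of the 15 were at least 2-fold lower in K27M.

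Of 12 proneural bHLH genes marked in wild type, 10 were marked in both, and at 10 of 11 start sites the K27M library also had an interval. Their median log2 ratio was -0.88 for the mean density, with 3 of 10 at least 2-fold lower, and -1.16 for the highest. Neurod2 had a mean density of 16.8 in K27M and 30.7 in wild type, and Ptf1a, of inhibitory neurons, 6.75 and 16.7. Neurog2 had 16.6 in K27M and 13.9 in wild type, while its highest density was 45 in K27M and 60 in wild type. Bhlhe22 and Nhlh1, at 5.07 and 5.45 in wild type, had no K27M interval.

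Factors of mesoderm and endoderm were more divided. Of 43 marked in wild type, 24 were marked in both, and 8 of 21 with a ratio were at least 2-fold lower, around a median of -0.72. Tbx3, of limb and heart, had a mean density of 2.27 over 1599 bp in K27M and 15.5 over 47999 bp in wild type. Pitx1, of hindlimb, had 3.75 in K27M and 17.8 in wild type. Foxa2, of endoderm and floor plate, was the 1 gene at least 2-fold higher, with 18.5 in K27M and 7.80 in wild type. Hand2, of heart and limb, had 21.3 in K27M and 14.5 in wild type, and Gata3 13.5 and 9.38. Tbx5, of forelimb and heart, had its densest K27M interval (8.95) outside its densest wild-type interval (22.6), of which 2 K27M intervals covered 8.78%. Hand1 and Eomes, at 3.78 and 3.45 in wild type, had no K27M interval.

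Signalling genes had ratios close to the median of all genes. Of 32 Wnt, BMP, FGF and Hedgehog ligands marked in wild type 20 were marked in both, and 12 of the 20 were at least 2-fold lower, with a median of -1.35. Wnt3a and Wnt9a, which share a wild-type interval, had mean densities of 7.32 and 4.16 in K27M and 22.4 in wild type. Dhh, a Hedgehog ligand, had 2.62 in K27M and 15.0 in wild type, and Fgf10, of limb and lung, 7.83 and 5.12. Bmp3 and Bmp4, at 3.56 and 4.27 in wild type, had no K27M interval. Among secreted antagonists 4 of 9 were marked in both and 3 of the 4 were at least 2-fold lower, with Dkk3 at 4.23 in K27M and 17.9 in wild type and Dkk2 at 3.52 and 11.8. The BMP inhibitor Nog, at 8.76 in wild type, had no K27M interval.

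Receptors and channels of neuronal activity came next. Both libraries marked 22 of 38 neurotransmitter receptors, with a median of -0.81 and 8 of 20 at least 2-fold lower. Adra2b, an adrenergic receptor, had a mean density of 7.30 in K27M and 19.6 in wild type, and Grm6, of retinal bipolar cells, 2.39 and 15.4. Glra3, a glycine receptor subunit, had 8.30 in K27M and 4.70 in wild type. Of 31 voltage-gated channels 17 were marked in both, and 8 of 13 with a ratio were at least 2-fold lower around a median of -1.26. Kcnh3 had 12.3 in K27M and 24.5 in wild type, and Cacna1i 3.44 and 14.2. The calcium channel gene Cacna1h had 14.3 in wild type and no K27M interval on its span, although 4 K27M pieces covered 73.6% of the wild-type interval that reached it.

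Matrix and immune genes lay nearer to the share over all genes, with 36.4% of the collagens and 25% of the leukocyte genes marked in wild type also marked in K27M. Both libraries marked 12 of 33 collagens, and 5 of the 8 with a ratio were at least 2-fold lower around a median of -1.38. Col4a3, of basement membranes, had a mean density of 4.60 in K27M and 14.4 in wild type, and Col2a1, of cartilage, 5.02 and 14.0. Of 20 leukocyte genes 5 were marked in both, and none of 10 wild-type start sites kept an interval. Laptm5 had 2.14 in K27M and 13.4 in wild type, and all 4 leukocyte genes with a ratio were at least 2-fold lower. Classical and type II cadherins were marked in both in 6 of 12 cases, with Cdh15, of muscle, at 2.72 in K27M and 14.0 in wild type and Cdh12, of brain, at 7.41 and 6.11. Ephrins and Eph receptors were marked in both in 5 of 10 cases, with Epha10 at 4.87 in K27M and 16.0 in wild type.

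Of 33 genes of Polycomb subunits 4 were marked in K27M and 5 in wild type, with 3 in both. Cbx7, a reader of H3K27me3, had a mean density of 2.13 in K27M and 11.5 in wild type, Epop, a partner of Polycomb repressive complex 2, 4.32 and 10.8, and Pcgf2, of Polycomb repressive complex 1, 2.79 and 4.60. Cbx2, another reader, had 10.7 in wild type and no K27M interval on its span. None of 29 housekeeping genes was marked in either library.

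The X chromosome stood apart from the autosomes. It held 287 K27M and 435 wild-type intervals, a ratio of 0.660, while the ratios of the 19 autosomes ran from 0.185 on chromosome 18 to 0.382 on chromosome 2. The called length on X was 53.7% of the wild-type one, against 12.2% to 23.4% on autosomes. K27M intervals met 32.9% (28.5 to 37.5) of wild-type intervals on X, against 12.1% to 23.5% on autosomes, and covered a median of 74.3% of those met, against 45.1% over the autosomes together. The median log2 ratio of the mean density in single pairs was -0.62 (-0.67 to -0.52) over 93 pairs on X and -1.11 (-1.13 to -1.08) over 2548 pairs on autosomes. Wild-type intervals on X were shorter and thinner, with medians of 5399 bp and a mean density of 3.99, against autosomal medians of 6999 to 11799 bp and 4.56 to 5.74, and the part of this in the X values was not tested. Only 59.9% of the K27M intervals on X lay on a wild-type interval, and 115 did not, whereas the autosomal shares ran from 61.9% on chromosome 16 to 98.7% on chromosome 19.

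**Figure D5:**
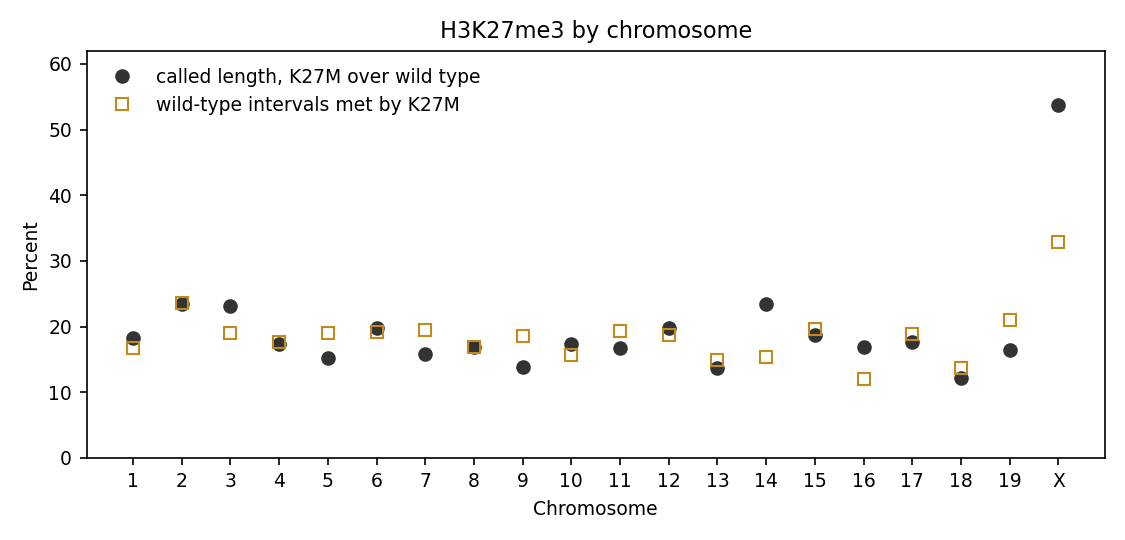
K27M called H3K27me3 length as percent of the wild-type length (black circles) and percent of wild-type intervals met by a K27M interval (open squares) on each chromosome; Y, with few intervals, is not drawn. X lies above every autosome by both measures, at 53.7% and 32.9%.

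The active marks were a readout of other libraries. H3K4me3, the mark of active or poised start sites, overlapped 30.6% of met and 7.18% of unmet wild-type H3K27me3 intervals in the K27M library, and 28.6% of met and 6.75% of unmet ones in the wild-type library. Met intervals were longer and denser, so the shares were also taken within deciles of wild-type density and within length classes. In the top decile H3K4me3 of the K27M library lay on 43.8% (41.4 to 46.2) of met and 24.1% (20.0 to 28.5) of unmet intervals. In deciles 2, 3 and 5 the counting intervals of met and unmet overlapped, as in decile 2 with 4.55% and 3.13%. By length the shares were 16.5% and 4.74% at 2 to 5 kb, and 43.2% and 13.5% at 40 kb or more. With a CpG island the shares were 72.4% (69.8 to 74.8) and 55.3% (52.6 to 57.9). H3K27ac, the mark of active promoters and enhancers, overlapped 5.52% of met and 1.36% of unmet intervals in the K27M library. In the wild-type library it overlapped 11.3% of met and 2.39% of unmet ones. Within density deciles, the counting intervals of met and unmet for K27M H3K27ac overlapped in all but the top decile. There the shares were 8.05% and 3.19%. For wild-type H3K27ac the counting intervals were apart in deciles 6, 9 and 10 only. By length, those for K27M H3K27ac overlapped at 2 to 5 kb and at 40 kb or more, and were apart in the classes between. Among intervals with a CpG island, H3K27ac of the K27M library lay on 14.2% of met and 13.1% of unmet ones, whose counting intervals overlapped, and H3K27ac of the wild-type library on 22.4% (20.1 to 24.8) of met and 16.4% (14.5 to 18.4) of unmet ones. Unmet wild-type intervals had an H3K27ac interval in the K27M library alone in 0.374% of cases and in the wild-type library alone in 1.40%. The K27M H3K27ac list is the smaller one, with 20040 intervals against 39018.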

How the data were processed

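Chromatin immunoprecipitation libraries of 2 genotypes were analysed from the interval tables that the authors deposited, with 1 list per library, grouped by sample title. Per the labels' protocols, fixation took 15 min in 1% formaldehyde, and 30 ug of chromatin and 4 ul of antibody were used. BWA, SICER and the build mm10 are named in the submitters' processing notes; versions, roles, thresholds, use of input and sampling of tags are not stated in what was used here. Interval lengths, counting both ends, are multiples of 200 bp, and printed lengths are the end less the start. Per the file headers the mean and highest densities are a signal in bins of about 32 nt, and they were used as deposited. The product of mean density and bin number was whole within 0.05 in 99.6% of K27M and 99.4% of wild-type intervals. Total depth is unknown, so a difference of library scale cannot be told apart from a genome-wide change.

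Computed here, with Python 3.11.15, pandas 2.3.3, numpy 2.4.6, scipy 1.17.1 and matplotlib 3.10.9, were overlaps of at least 1 bp, pieces, covered shares, summit distances and log2((K27M density + 1)/(wild-type density + 1)). Shares have exact binomial and medians order-statistic intervals at 95%. Overlap code was tested on simulated data. Gene spans were those of RefSeq on GRCm38.p6, with no flank, and promoters of 300 bases from RefSeq. A gene's densities are those of its densest interval in each list, with a ratio only where both overlap. Named were 6 loci at each extreme (pieces, unmet length, intact length, summit distance, shape, highest density), without predicted or olfactory receptor genes, and of each gene list the 2 densest and 2 thinnest marked members. Other members were named after their values were seen, and some genes within the naming rule are not reported here. The members and lists were chosen with earlier results of these data known. Inputs were not used here. Alternatives covered a density floor, a length minimum, joining, autosomes, overlap, pseudocount, scaling, the gene flank and the bins of the mean. Gene names in the deposited tables were to be an alternative, and could not be used since the tables give numbers of genes.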

Additional observations from a re-analysis of the deposited data

How the results depend on the processing

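No paired analysis was possible because each group has 1 library. Of 100 values recomputed under an alternative, 48 stayed within their margin of counting error or of count, 50 moved beyond it and 2 turned sign. Leaving out the sex chromosomes moved none beyond it. The 2 reversals came from equal sums of density, which put the median log2 ratio in single pairs at 1.40 for the mean and 1.18 for the highest density, and equal 5th percentiles put it at -0.45 and -0.79. A pseudocount of 5 gave -0.64 and -1.18. A density floor at the wild-type 5th percentile (3.54) moved most values: K27M over wild-type number of intervals 0.0794, median length 10799 bp in K27M against 8599 bp in wild type, the reverse of the order without it, wild-type intervals met 7.02%, split 9.06%, covered share 60.7%, summit kept 91.7%, summit distance 864 bp, highest over mean density 3.04 in K27M and 2.80 in wild type, also the reverse, log2 ratios -0.79 and -1.18, and wild-type genes also marked in K27M 14.4%. With it, H3K4me3 lay on 39.6% of met and 9.96% of unmet intervals in K27M and 36.4% and 9.40% in wild type, and H3K27ac on 6.38% and 1.92% in K27M and 13.6% and 3.54% in wild type. Intervals of at least 2 kb gave a K27M length of 5399 bp, 17.6% met, 22.5% split, 47.5% covered, 86.1% of summits kept and a K27M highest over mean density of 2.65. Joining intervals within 5 kb gave lengths of 6399 bp in K27M and 10799 bp in wild type, 22.4% met, 16.7% split, 35.3% covered, 82.2% of summits kept, a summit distance of 1200 bp, highest over mean densities of 2.72 in K27M and 2.94 in wild type and a log2 ratio of the mean of -0.98. An overlap of at least 50% of the shorter interval lowered the other marks, with H3K4me3 on 23.6% of met and 4.84% of unmet intervals in K27M and 21.1% and 4.48% in wild type, and H3K27ac on 3.74% and 0.976% in K27M and 7.74% and 1.56% in wild type. With the mean over all bins, an alternative chosen after seeing the data, highest over mean density was 2.92 in K27M and 2.90 in wild type, against 2.59 and 2.79 over counted bins, so which library had the larger value depended on it as on the floor, and the log2 ratio of the mean was -1.17. The cause of these moves was not tested beyond what each setting leaves out or rescales. A floor on density removes K27M intervals before wild-type ones, and intervals thinner than the caller's unknown threshold could not be seen in either library.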

Other observations

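The K27M intervals on no wild-type interval were unevenly spread, as counted in blocks of 5 Mb. Chromosome 14 held 72 of them among 234 K27M intervals, with 36 in the block that starts at 95 Mb, and chromosome X held 115 of 287, with 23 in the block that starts at 110 Mb. Chromosome 19 held 2 of 153 and chromosome 9 held 6 of 342. Chromosome 16 held 61 of 160 and chromosome 10 held 43 of 206, of which 18 lay in the block that starts at 100 Mb. These blocks were chosen with their counts in view.

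The longest median intervals of both libraries lay on chromosome 15, with 6599 bp in K27M and 11799 bp in wild type, and that chromosome also had the highest autosomal median mean densities, 3.04 in K27M and 5.74 in wild type. It holds the HoxC, Wnt1 and Kcnh3 domains.

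Of the 5877 K27M intervals, 789 (13.4%) lay on no wild-type interval. Of the 2182 genes marked in the K27M library, 118 were marked there alone. Among the listed genes they included the homeobox genes Lhx9, with a mean density of 10.1, and Pou4f1 (2.54), the factors Foxa1 (10.3) and Tcf21 (3.21), the Polycomb gene Pcgf1 (3.94) and the BMP antagonist Chrdl1 (2.59).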
